A study of Rattus norvegicus with 4 samples.

Results

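The CCN family of secreted matrix proteins was examined in rat hepatic stellate cells, the liver pericytes that store retinoids and turn into myofibroblasts in fibrosis, after siRNA against endoglin, a TGF-beta and BMP co-receptor. Members were the gene spots whose name on the array was Cyr61, Ctgf, Nov, Wisp1 or Wisp2, called Ccn1, Ccn2, Ccn3, Ccn4 and Ccn5 today. They came to 5 of 25501 genes tested, 6 of 41012 gene probes and 15 of 43379 gene spots on each array. Ccn1 had 2 probes, the probe of Ccn2 was spotted 10 times, and each other gene had 1 probe with 1 spot. The family was selected on the log2 ratios of endoglin siRNA over control siRNA cells, among which that of Ccn4 is one of the lowest, so these ratios are given as a description, without a test.

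CCN proteins are secreted, cysteine-rich modular proteins of the extracellular matrix that act on cells mainly through integrins, heparan sulfate proteoglycans and LRP receptors. Ccn1 and Ccn2 are induced by serum, by TGF-beta and by YAP with its TEAD partners, and Ccn2 is a much-used marker of liver fibrosis. Ccn4 and Ccn5 were first described as genes induced by Wnt-1 signalling, and Ccn5 lacks the C-terminal cystine knot of the other members. Ccn3 opposes Ccn2 in several models of fibrosis.

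Each array carried Cy5-labelled RNA of cells given siRNA against endoglin, or of untreated cells, and Cy3-labelled RNA of control siRNA cells. Each group had 2 arrays, 1 with RNA pooled from 3 animals and 1 with RNA of 1 animal, and the 4 arrays shared 1 slide and 1 scan. Strain, age, days of culture, siRNA sequences and the time after transfection are not stated in the sources used here. It is also not stated whether arrays shared a control RNA or whether the pool included the single animal. Nor is it stated whether both arrays of 1 animal used the same animal, or both pooled arrays the same pool. RNA source below means only pool or 1 animal. No dye was swapped, so an effect of the dye and an effect of the treatment cannot be told apart, and the small number of arrays limits the precision. Since the RNA is from bulk cells, fewer cells of a type and less RNA per cell cannot be told apart.

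The share of gene spots well above background was 65.7% to 93.3% in Cy5 and 61.9% to 87.2% in Cy3. The highest share in each dye was on the pooled array of the untreated group. All 11 stellate cell markers named on the array were well above background in both dyes of every array, desmin, Pdgfrb and Col1a1 among them. Markers of other liver cells were present too. The summed Cy3 signal of 8 Kupffer cell and macrophage markers was 1200 and 1530 on the pooled arrays, against 4760 and 5720 on the arrays of 1 animal. The endoglin transcript (Eng) fell in endoglin siRNA cells, with log2 ratios to control siRNA of -1.72 in the pool and -3.08 in 1 animal (mean -2.40, SE 0.26, 5.29-fold lower, adjusted p = 0.00507 in limma). Untreated cells gave -0.42 and -0.36, with an adjusted p of 0.607 in limma.

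All 6 CCN probes were well above background in each of 8 readings, 4 arrays in 2 dyes, and none was saturated. Uncorrected signals of different dyes cannot be set against each other, so each ratio is log2 of Cy5 over Cy3 after background correction and loess normalization, so a negative value means less transcript in endoglin siRNA or untreated cells than in control siRNA cells. Direction follows the dyes named in the labels; the authors' deposited value table has the opposite sign on both untreated arrays.

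**Figure D1:**
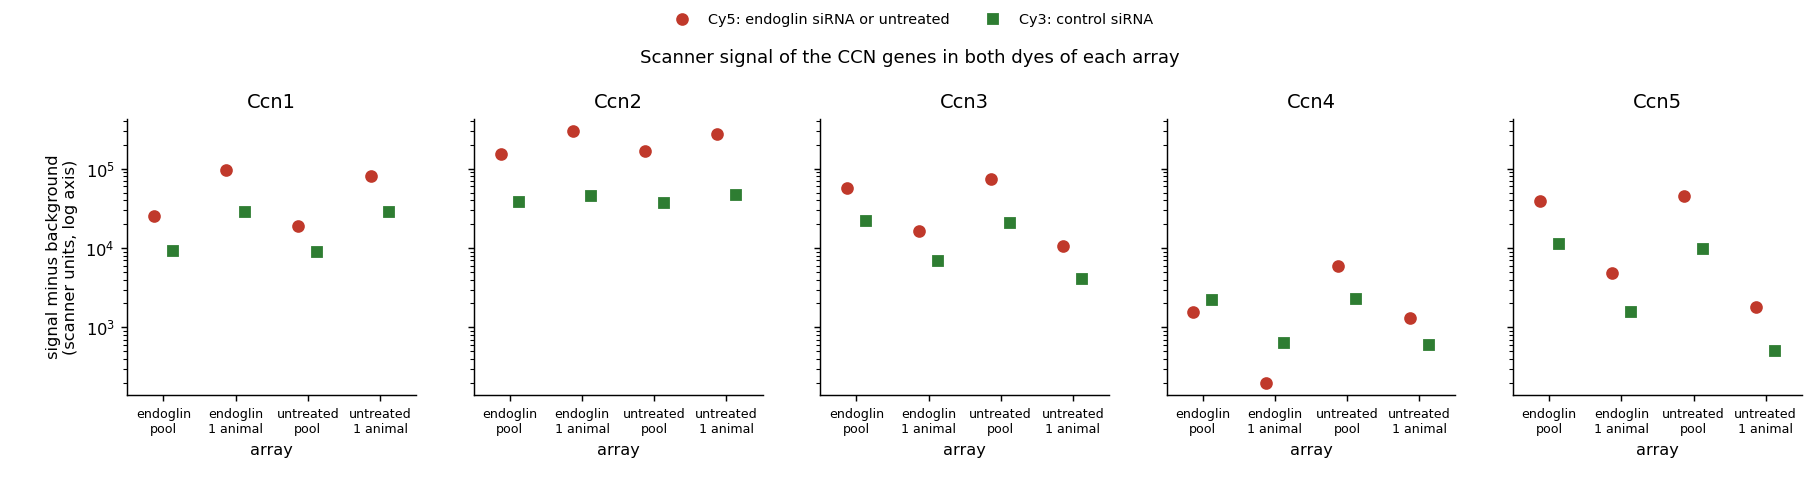
Scanner signal minus local background (log axis) of the probe that stands for each CCN gene on the 4 arrays, with endoglin siRNA or untreated cells in Cy5 as circles and control siRNA cells in Cy3 as squares; points of Ccn2 are medians over the spots used. Ccn4 is the only member whose Cy5 point lies under the Cy3 point on both endoglin siRNA arrays, and Ccn3, Ccn4 and Ccn5 are higher on pooled arrays in both dyes, while Ccn1 and Ccn2 are lower there.

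Ccn4, a Wnt-inducible matricellular protein, had the lowest ratio of the family in endoglin siRNA cells. Its signal was 1561 in pooled endoglin siRNA cells and 201 in those of 1 animal, against 2224 and 642 in the control siRNA cells on the same arrays. The log2 ratios were -1.53 and -2.76, a mean of -2.15 ± 0.87 (SD, n = 2 arrays) or 4.43-fold lower, the 4th lowest of all 25501 genes. A few spots with very high local background disturbed the background correction of both pooled arrays. With these spots kept out of the correction the pooled ratio was -1.98, and the log ratios of Feature Extraction gave -2.07 in the pool and -3.34 in 1 animal. In untreated cells the signal of Ccn4 was 5892 in the pool and 1321 in 1 animal, against 2263 and 591 in control siRNA cells, and the ratios were -0.36 and -0.21. That mean of -0.29 (SE 0.24, 95% interval -0.84 to 0.27, 1.22-fold lower) did not pass the test (adjusted p = 0.689 in limma). The Ccn4 ratio in endoglin siRNA cells was then set against the untreated array of the same kind of RNA source. It differed by -1.17 log2 units in the pool and by -2.55 in 1 animal. This difference uses the same endoglin siRNA arrays and was not tested.

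The genes whose ratios on the 4 arrays lay nearest to those of Ccn4 by Euclidean distance were Eng at 0.40, Cthrc1 at 0.62, Ptgis at 0.98, Tgm2 at 1.01 and Flnc at 1.12 log2 units. The Ccn4 ratios furthest from 0 are those in endoglin siRNA cells, on which the family was selected. Only genes with very low ratios there could lie near, so these distances are a description without a test. Cthrc1, a secreted protein of injured and fibrotic tissue, had ratios of -1.33 in the pool and -2.34 in 1 animal of endoglin siRNA cells, and 0.04 and -0.20 in untreated cells. Ptgis makes prostacyclin, Tgm2 cross-links matrix proteins and Flnc is an actin-binding filamin.

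**Figure D2:**
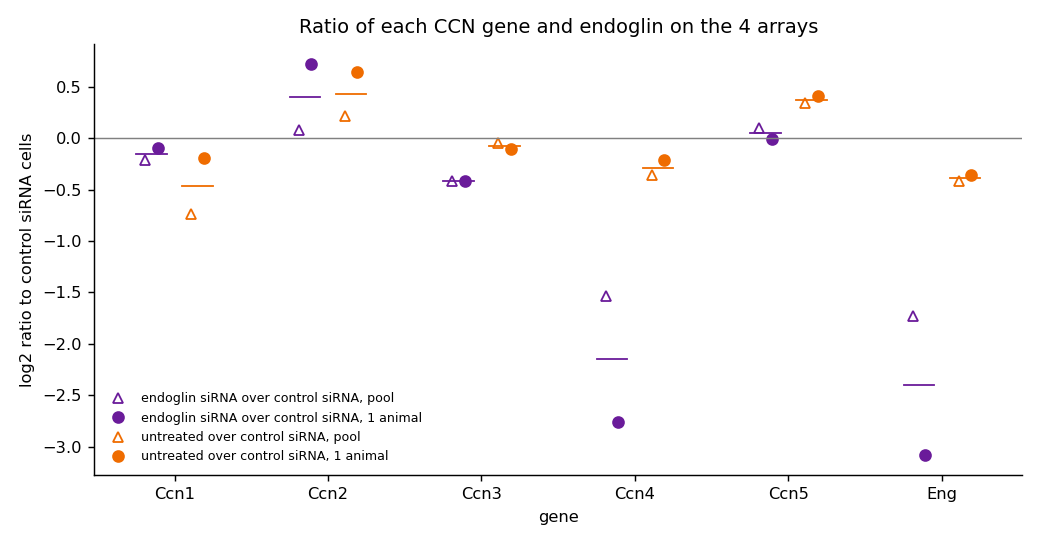
Log2 ratio to control siRNA cells of the 5 CCN genes and of Eng, the siRNA target, with open triangles for pooled RNA, filled circles for 1 animal and a line at the mean of 2 arrays; endoglin siRNA cells are drawn left of untreated cells. Ccn4 and Eng lie far below 0 in endoglin siRNA cells (means -2.15 and -2.40), and the other 4 CCN genes lie between -0.73 and 0.73 on every array.

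Ccn5, the member without the C-terminal domain, differed little from control siRNA cells after endoglin siRNA and was the member nearest to the threshold in untreated cells. Its signal was 39161 in pooled endoglin siRNA cells and 4785 in those of 1 animal, against 11089 and 1560 in control siRNA cells. In untreated cells it was 44883 in the pool and 1806 in 1 animal, against 9688 and 509 in control siRNA cells. The pool was far brighter than 1 animal in every group. The ratios in endoglin siRNA cells were 0.10 in the pool and -0.0037 in 1 animal (mean 0.05 ± 0.07, SD, n = 2). In untreated cells they were 0.34 and 0.41, a mean of 0.37 (SE 0.06, 95% interval 0.22 to 0.52, 1.3-fold higher) with an adjusted p of 0.0574 in limma. Both untreated values lay above both endoglin siRNA values. The call depends on the fit. The adjusted p of Ccn5 was 0.0204 with RNA source as a block, 0.0405 without the filter on dim probes and 0.0273 without either endoglin siRNA array. It was 0.349 with Feature Extraction ratios or the deposited table, 0.403 and 0.417 without 1 of the untreated arrays, and 1 with median centring or scaling between arrays.

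Ccn3, described as an antagonist of Ccn2 in fibrosis models, had almost equal ratios on both endoglin siRNA arrays. Its signal there was 57650 in pooled endoglin siRNA cells and 16593 in those of 1 animal, against 22021 and 6785 in control siRNA cells. The log2 ratios were -0.42 and -0.41 (mean -0.41, SD 0.0012, n = 2, 1.33-fold lower), outside the range of -0.27 to 0.32 that held the 5th to 95th percentile of all genes. As the family was selected on these ratios, that place is a description and no test. In untreated cells the signal was 74353 in the pool and 10762 in 1 animal, against 20627 and 4067 in control siRNA cells, and the ratios were -0.04 and -0.10. Their mean of -0.07 (SE 0.06, 95% interval -0.22 to 0.07) had an adjusted p of 0.683 in limma. The sign of Ccn3 rests on loess: with median centring in its place the mean was 0.86 in endoglin siRNA cells and 0.093 in untreated cells.

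Ccn1 and Ccn2, both textbook targets of YAP and TEAD, had ratios of opposite sign on all 4 arrays after loess, and their promoters are printed here for that reason. The sequences are those of RefSeq on the build GRCr8, 300 bases across the start site on the minus strand, at chr2:237225640-237225939 for Ccn1 and chr1:22624565-22624864 for Ccn2; 2 of the 5 members were in the promoter table. Capitals mark the TEAD element GGAATG, or its reverse complement.
Ccn1: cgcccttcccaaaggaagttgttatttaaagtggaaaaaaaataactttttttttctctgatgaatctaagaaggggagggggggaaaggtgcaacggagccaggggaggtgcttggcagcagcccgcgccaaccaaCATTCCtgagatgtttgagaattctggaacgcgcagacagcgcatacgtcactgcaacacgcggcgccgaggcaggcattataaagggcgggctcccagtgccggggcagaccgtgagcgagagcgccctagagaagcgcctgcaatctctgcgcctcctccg
Ccn2: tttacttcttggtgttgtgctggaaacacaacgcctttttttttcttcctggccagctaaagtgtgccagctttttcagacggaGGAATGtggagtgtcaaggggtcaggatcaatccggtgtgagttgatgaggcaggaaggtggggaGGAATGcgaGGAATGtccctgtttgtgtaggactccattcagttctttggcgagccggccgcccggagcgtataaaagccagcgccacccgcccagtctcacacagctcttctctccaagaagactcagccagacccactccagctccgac
The element occurs 3 times in the Ccn2 promoter, with first bases at -166, -101 and -92 from the start site, and 1 time in the Ccn1 promoter, at -113 on the reverse strand. At least 1 match on either strand was present in 14.2% of 33469 rat promoters of this length, and 3 or more in 0.0956%. The Smad box CAGAC occurs 2 times in each promoter, at -80 and -6 in Ccn1 and at -174 and 30 in Ccn2, and 50.1% of all promoters hold at least 1. Such a match describes letters in a window and is no evidence of binding.

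Ccn1 was lower than in control siRNA cells on all 4 arrays after loess, by most in pooled untreated cells. Its signal was 25359 in pooled endoglin siRNA cells and 95922 in those of 1 animal, against 9273 and 28340 in control siRNA cells. In untreated cells it was 19097 in the pool and 81718 in 1 animal, against 8975 and 28120 in control siRNA cells. The level was thus lower on pooled arrays in both dyes. The untreated ratios were -0.73 in the pool and -0.19 in 1 animal, and their mean of -0.46 (SE 0.12, 95% interval -0.74 to -0.19, 1.38-fold lower) had an adjusted p of 0.146 in limma. In endoglin siRNA cells the ratios were -0.21 in the pool and -0.10 in 1 animal (mean -0.15 ± 0.08, SD, n = 2), a sign that turned under median centring (mean 1.12). The second Ccn1 probe gave -0.24 and -0.19 in endoglin siRNA cells and -0.83 and -0.22 in untreated cells. Both probes therefore had their lowest ratio in pooled untreated cells.

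Ccn2 was higher than in control siRNA cells on all 4 arrays after loess, and by more in 1 animal than in the pool. Its median signal over spots was 154784 in pooled endoglin siRNA cells and 297524 in those of 1 animal, against 37596 and 45564 in control siRNA cells. In untreated cells it was 167212 in the pool and 271023 in 1 animal, against 36766 and 46347 in control siRNA cells. The brightest readings were those of 1 animal in both groups. In endoglin siRNA cells its ratios were 0.08 in the pool and 0.73 in 1 animal (mean 0.40 ± 0.46, SD, n = 2). Untreated cells gave 0.22 and 0.64, a mean of 0.43 (SE 0.15, 95% interval 0.06 to 0.79, 1.34-fold higher) with an adjusted p of 0.279 in limma. Endoglin siRNA cells and untreated cells thus overlapped, and the difference between them was -0.13 in the pool and 0.09 in 1 animal. With the disturbed spots kept out of the background correction, the pooled ratios were 0.19 for endoglin siRNA and 0.11 for untreated cells. The sign of the pooled ratios depended on the processing too. Feature Extraction's own log ratios of Ccn2 were -0.06 for endoglin siRNA and -0.16 for untreated cells in the pool, and 0.38 and 0.31 in 1 animal. Under both alternatives endoglin siRNA cells had the higher pooled ratio, so the sign of that difference in the pool is not settled.

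The repeated spots of the Ccn2 probe show how far a ratio moved within 1 array. Of 10 spots, 9 were used on the pooled endoglin siRNA array, with a mean of 0.08 ± 0.06 (SD over spots), and 7 on that of 1 animal, with a mean of 0.73 ± 0.04. The untreated arrays had 10 and 9 usable spots, with means of 0.22 ± 0.06 in the pool and 0.64 ± 0.10 in 1 animal. Used spots of pooled arrays reached at most 0.28 and those of 1 animal were at least 0.40, so the spots used did not overlap between pool and 1 animal, whereas spots set aside on the arrays of 1 animal went down to 0.07. The SDs over spots are smaller than the SDs over arrays of 0.46 and 0.30, but spots of 1 array share the RNA and the labelling.

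**Figure D3:**
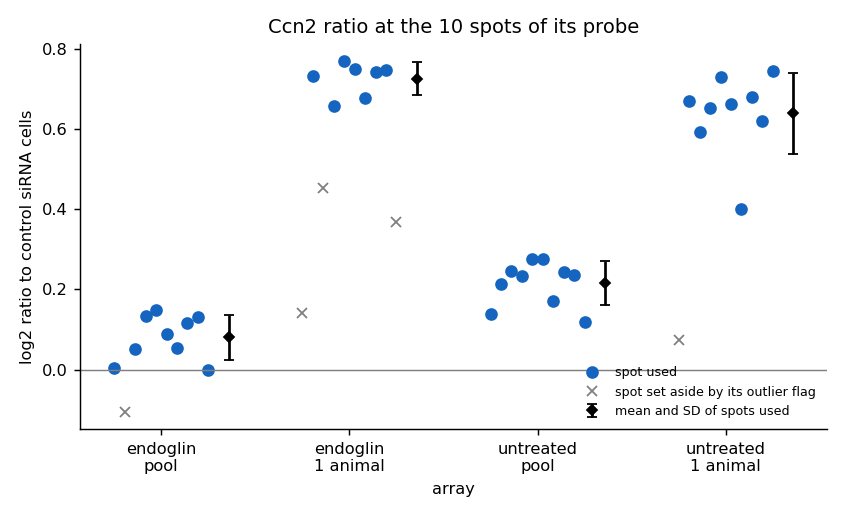
Log2 ratio of Ccn2 to control siRNA cells at the 10 spots of its probe on each array; circles are spots used, crosses are spots set aside by an outlier flag, and diamonds with bars are the mean and SD of the spots used. Spots of the pooled arrays lie at or below 0.28, and used spots of the arrays of 1 animal lie between 0.40 and 0.77.

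In untreated cells 0 of the 5 CCN genes passed limma at an adjusted p of 0.05, beside 0.71% of all genes, with 3 of 5 (Ccn1, Ccn2 and Ccn5) under 0.05 before adjustment, beside 13.6%. With RNA source as a block the adjusted p was 0.0204 for Ccn1, 0.0146 for Ccn2 and 0.0204 for Ccn5, the lowest value each had under any alternative. With the log ratios of Feature Extraction it was 0.349, 0.867 and 0.349, and the Ccn2 ratio was 0.08. With median centring or scaling between arrays it was 1 for all 3. The median log2 ratio of the family was -0.15 in endoglin siRNA cells, where the median of all genes was 0.02, and -0.07 in untreated cells, where it was 0.0011. On the pooled arrays 3 of 5 members lay below 0 in endoglin siRNA cells and 3 of 5 in untreated cells. For 1 animal the counts were 4 of 5 and 3 of 5. The members therefore did not share a direction on any array. In endoglin siRNA cells 8.14% of all genes passed the test in either direction; as the members were taken up with those ratios known, none is counted there.

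The levels of Ccn1, Ccn3, Ccn4 and Ccn5 differed by over 3-fold between pooled cells and cells of 1 animal in control siRNA cells, while that of Ccn2 differed by 1.26-fold. This comparison was chosen after the values had been seen. It sets a pool against 1 animal on each array pair and has no replicate known to be independent, so it carries no test. It used log2 levels per dye, normalized between arrays. In control siRNA cells Ccn5 was higher in the pool than in 1 animal by 2.86 on the endoglin siRNA array pair and by 4.15 on the untreated array pair, a mean of 3.51 ± 0.91 (SD over array pairs) or 11.4-fold, the fifth highest difference of 25497 genes. It was 1 of 67 genes (0.263%) at least 4-fold higher on both pairs. The Cy5 channel, with other cells, gave 2.99 for endoglin siRNA cells and 4.08 for untreated cells. Ccn3 was higher by 1.69 and 2.33 in control siRNA cells (mean 2.01 ± 0.46, 4.03-fold), and by 1.74 in endoglin siRNA cells and 2.34 in untreated cells. Ccn4 was higher by 1.74 and 1.76 in control siRNA cells (mean 1.75 ± 0.01, 3.36-fold), by 2.52 in endoglin siRNA cells and by 1.64 in untreated cells.

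Ccn1 and Ccn2 lay on the other side. Ccn1 was lower in the pool, with log2 differences of -1.73 and -1.77 in control siRNA cells (mean -1.75 ± 0.03, 3.37-fold), -1.85 in endoglin siRNA cells and -2.31 in untreated cells. Ccn2 was lower by less, at -0.34 on both pairs in control siRNA cells (1.26-fold), -0.87 in endoglin siRNA cells and -0.86 in untreated cells. Over all genes the mean difference had a 5th to 95th percentile of -0.76 to 0.82 and a median of -0.04. The members Ccn3, Ccn4 and Ccn5 were at least 2-fold higher in the pool on both array pairs, as were 1.99% of all genes, and Ccn1 was at least 2-fold lower on both, as were 2.22%. Under the other 2 settings tried the control siRNA means kept their sign, at -1.81 and -1.74 for Ccn1, -0.44 and -0.34 for Ccn2, 1.59 and 1.99 for Ccn3, 1.84 and 1.44 for Ccn4, and 3.14 and 3.39 for Ccn5.

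**Figure D4:**
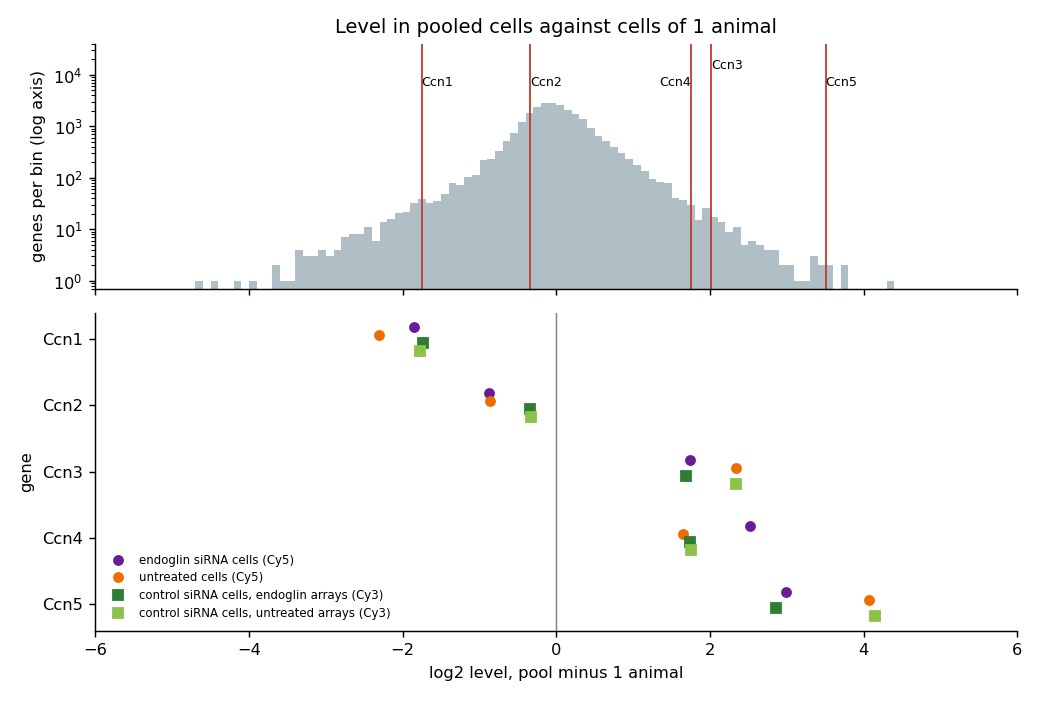
Top, number of genes (log axis) by their mean log2 level difference, pool minus 1 animal, in control siRNA cells, with the CCN genes as vertical lines; bottom, the difference of each CCN gene in endoglin siRNA, untreated and control siRNA cells. Ccn5 (mean 3.51), Ccn3 (2.01) and Ccn4 (1.75) lie above 0 in all 4 readings, and Ccn1 (-1.75) and Ccn2 (-0.34) lie below 0 in all 4.

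Ccn5 and Ccn3 also differed between the control siRNA RNAs of the arrays with 1 animal. The Cy3 level of Ccn5 on the endoglin siRNA array was 1.49 log2 units (2.81-fold) above that on the untreated array, a gap that only 162 of 25497 genes reached, Ccn5 included, and that of Ccn3 was 0.71 (1.64-fold) above it. On the pooled arrays the same gaps were 0.20 and 0.07. Those of Ccn1, Ccn2 and Ccn4 were at most 0.03 for 1 animal and at most 0.07 for the pool. On the arrays of 1 animal the Ccn5 signal was higher on the endoglin siRNA array in both dyes, so a comparison of Cy5 levels alone would differ from the ratio.

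Cell markers moved with the pool as well, and their part in the CCN levels was not tested. Of 11 stellate cell markers (median -0.06), Col1a1 (1.21) was at least 2-fold higher in the pool on both array pairs. Lrat (-1.66) was at least 2-fold lower on both. Of all genes 1.99% were as far higher and 2.22% as far lower. On both array pairs 3 of 7 portal fibroblast and mesothelial markers were at least 4-fold higher in the pool, beside 0.263% of all genes. They were Fbln2 (3.11), Gpc3 (2.91) and Msln (2.34), as means over the pairs. The summed Cy3 signal of that list was 2510 and 2590 on pooled arrays, against 1250 and 1330 on those of 1 animal. Entpd2, another of that list, went the other way at -1.46. Thy1 and Upk3b were not well above background in Cy3 on either array of 1 animal, and Cd34 was not on any of the 4 arrays. Krt7, a cholangiocyte keratin, was 4.34 higher in the pool on the untreated array pair, and on the other pair it was not well above background in 1 animal. Krt19 and Epcam were not well above background in Cy3 on 3 and 4 arrays. Of 8 macrophage markers, 3 were at least 2-fold lower in the pool on both pairs, beside 2.22% of all genes. They were Cd68 (-3.09), C1qa (-2.84) and Clec4f (-1.72), while C1qb stood at 0.11 and Ptprc at -0.03. Ptprc was not well above background in Cy3 on the pooled endoglin siRNA array. Of 5 endothelial markers only the receptor Kdr (-3.24) was at least 2-fold lower on both pairs, and the median of that list was -0.08. Of 6 on the array, 2 were well above background in Cy3 on each array except the pooled untreated one, which had 4. That median therefore rests largely on dim readings.

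Some of the receptors and partners through which CCN proteins act passed the test, 3 of 12 in endoglin siRNA cells beside 8.14% of all genes. Of 12 tested, 0 rose and 3 fell in endoglin siRNA cells, with a median log2 ratio of -0.18, where 5.26% of all genes rose and 2.89% fell. The heparan sulfate proteoglycan Sdc4 fell by 0.40 (SE 0.08, adjusted p = 0.027 in limma), the endocytic receptor Lrp1 by 0.37 (adjusted p = 0.0303) and the integrin subunit Itgb3 by 0.32 (adjusted p = 0.04998). Their ratios on the pooled endoglin siRNA array were -0.32, -0.40 and -0.19. With the disturbed spots kept out of the background correction these were -0.48, -0.67 and -0.51. Cell markers moved in the same comparison, and their part in these and the following list values was not tested. Of 11 stellate cell markers 3 rose, Cygb (0.76) among them, and Col1a1 (-0.89) and Des (-0.61) fell. Cygb (0.999), Col1a1 (-0.19) and Des (-0.76) had the same signs in untreated cells. Of 4 hepatocyte markers only Cyp2e1 (0.48) rose, and of 5 endothelial markers only Kdr (0.87). The medians of these lists were 0.01 and 0.05. On the pooled array Kdr stood at 0.41, and at 1.29 with the disturbed spots kept out of the background correction. Of 2 cholangiocyte markers Sox9 (-1.09) fell and Krt7 (-0.22) did not pass. Among macrophage markers 0 of 8 passed, and among portal and mesothelial markers 0 of 7. Of the 12 receptors and partners 1 rose and 0 fell in untreated cells (median -0.07), where 0.435% of all genes rose and 0.274% fell. The gene that rose was the leukocyte integrin subunit Itgb2, at 1.15 (SE 0.12, adjusted p = 0.0157 in limma). Sdc4 (-0.25), Lrp1 (-0.26) and Itgb3 (-0.31) lay below 0 in untreated cells too, without passing. The falls of these genes are thus not particular to endoglin siRNA cells in sign, and for Itgb3 hardly in size. In the same comparison 3 of 8 macrophage markers rose, Cd68 at 0.99, C1qa at 1.16 and C1qb at 0.96, and all 8 had a positive ratio; their part in the Itgb2 value and in the CCN ratios was not tested.

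YAP and TEAD targets other than the CCN genes moved both ways. Of 18 tested, 2 rose and 3 fell in endoglin siRNA cells (median -0.04), where 5.26% of all genes rose and 2.89% fell. In untreated cells 0 passed (median -0.12), beside 0.71% of all genes. The growth factor binding protein Igfbp3 rose by 0.50 and Crim1 by 0.33 in endoglin siRNA cells, while the receptor tyrosine kinase Axl fell by 0.51 and the ectonucleotidase Nt5e (CD73) by 0.48 (limma adjusted p between 0.00796 and 0.0274). Dock5, named here after its value was seen, fell by 0.29 (adjusted p = 0.039 in limma). With the disturbed spots kept out of the background correction, the pooled ratio was -0.94 in place of -0.52 for Axl. It was -0.57 in place of -0.29 for Dock5 and -0.45 in place of -0.42 for Nt5e. Igfbp3 (0.23), Axl (-0.30), Nt5e (-0.17) and Dock5 (-0.19) had the same signs in untreated cells, without passing. In untreated cells the largest ratios were those of Ankrd1, a cardiac-type ankyrin repeat protein, at -1.52 in the pool and -0.37 in 1 animal, and of Crim1 at 0.41 and 0.36. Neither passed (adjusted p = 0.139 and 0.0603 in limma).

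Of 12 Hippo pathway genes and TEAD factors tested, 0 rose and only Tead3 fell in endoglin siRNA cells, at -0.36 in the pool and -0.77 in 1 animal (mean -0.57, adjusted p = 0.017 in limma), and the list's median was 0.06. That is 1 of 12, close to the 8.14% of all genes that passed. With the disturbed spots kept out of the background correction, the pooled ratio of Tead3 was -0.90, so its gap from 1 animal depends on the processing. In untreated cells 0 passed (median -0.04), beside 0.71% of all genes, with Tead3 at -0.33 and Wwtr1, the YAP paralogue TAZ, at -0.17. Of 10 Wnt/beta-catenin targets tested, 0 passed in either comparison, beside 8.14% of all genes in endoglin siRNA cells and 0.71% in untreated cells, with medians of 0.03 in endoglin siRNA cells and 0.0012 in untreated cells. The largest ratios in endoglin siRNA cells were 0.25 for Nkd2 and -0.20 for Nkd1, both inhibitors within the Wnt pathway. In untreated cells they were 0.40 for the cyclin Ccnd1 (adjusted p = 0.0766 in limma) and 0.12 for the transcription factor Sp5.

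**Figure D5:**
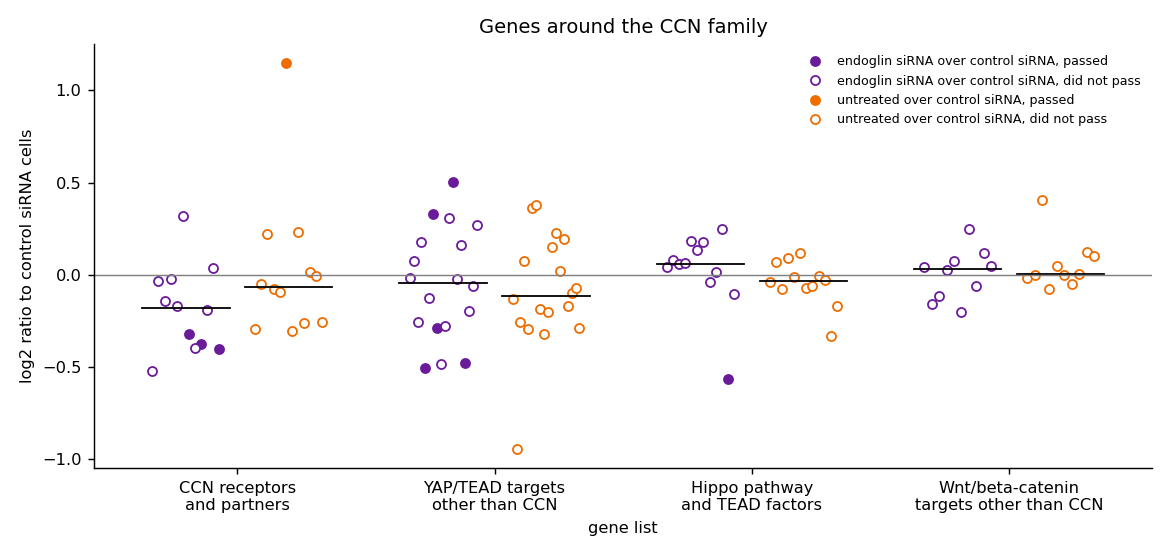
Log2 ratio to control siRNA cells of the genes of 4 lists around the CCN family, endoglin siRNA left of untreated cells in each list; filled points passed limma at an adjusted p of 0.05, open points did not, and black lines are medians. Most points lie within 0.5 of 0, Itgb2 stands at 1.15 in untreated cells, and Ankrd1 at -0.95 in untreated cells did not pass.

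Ccn6 (Wisp3), the sixth CCN gene, was outside the rule and was carried by 2 probes. Both were well above background only on the pooled untreated array. Signals there were 106 and 122 in untreated cells (Cy5), and 13.4 and 8.36 in control siRNA cells (Cy3). Of all its spots for genes, 93.3% met this mark in Cy5 and 87.2% in Cy3, against at most 70.2% and 62.3% elsewhere. Meeting it there was thus not particular to Ccn6. Uncorrected signals of different dyes do not give the ratio, which after loess was 0.03 and 0.07 on that array. It was 0.13 and 0.36 with the disturbed spots kept out of the background correction, and 0.42 and 0.85 with Feature Extraction. On the other 3 arrays neither probe was well above background, in either dye, so Ccn6 was not tested.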

How the data were processed

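Total RNA was amplified, labelled and hybridized to Agilent 4x44K rat arrays, per the labels. Signals are scanner intensity values extracted by the authors with Agilent Feature Extraction 9.5.1.1, and its log ratios are log10 of Cy5 over Cy3, both per the file headers. The deposited values are log10 ratios too (correlation 1 or -1 with the scanner files, differences up to 0.0048); its median is 0 on every array and its sign is opposite on both untreated arrays, for a reason not given in the sources used here.

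Mean signals were corrected by normexp with offset 50 and local median background, and normalized within arrays by loess on the log2 scale (limma 3.58.1, R 4.3.3, version 1.17.8 of the data.table package). Control spots had weight 0 and outlier spots were left out. Probes had to be well above background in a dye on at least 2 arrays, and the brightest probe stood for a gene. Gene names were updated with a RefSeq table, through the accession for 6585, the symbol for 3231 and a synonym for 2273 genes, while 13412 kept the file's name. Both group means were fitted over all 4 arrays with empirical Bayes variances and Benjamini-Hochberg adjustment. The p-values cover the spread between arrays only, since control RNA was hybridized only in Cy3 beside each sample. In simulated data of either comparison over 25501 genes, 96 of 100 genes changed by 2 log2 units passed, and 71 of 100 changed by 1. The simulated noise was independent between arrays, without a dye effect or a difference of RNA source, so these shares may not hold for the real arrays.

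Levels per dye for the pool against 1 animal used normexp fitted without spots of local background over 1000 (6 on each pooled array), loess and Aquantile scaling; this comparison and its settings were chosen after the data were seen. Members, lists, the rule for named genes and the tests were chosen with earlier results of these data known. Named were all members, Eng, Ccn6, the 5 genes nearest to Ccn4, and in each list up to 4 genes that passed or else the 2 largest ratios; cell markers are named after their values were seen. Probe coordinates are not printed, as the files name no build for them.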

Additional observations from a re-analysis of the deposited data

How the results depend on the processing

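Over all alternatives 131 values were held to be stable, 38 moved, 6 came to pass the test and 3 changed sign from a value larger than its SD. Stable means within 1 SD for untested ratios and levels, the same sign and side of the threshold for tested ratios, and within 1.5 times for counts. Sizes could still shift: Ccn2 in untreated cells was 0.08 with Feature Extraction ratios and 0.78 with median centring, Ccn2 in endoglin siRNA cells was 0.16 with Feature Extraction ratios, and Ccn1 in untreated cells was -0.20 with median centring. The count of genes passing in endoglin siRNA cells (2077 as reported) was 4508 without background correction, 4154 with normexp fitted without disturbed spots, 3954 with RNA source as a block, and 0 with the log ratios of Feature Extraction, the deposited table, median centring and scaling between arrays (limma; 7105, 7101, 6173 and 1420 at an unadjusted p under 0.05). It ranged from 882 to 2671 with 1 array left out. In untreated cells (181 as reported) the same settings gave 511, 475, 1036 and 0 (limma; 3328, 3329, 73 and 579 unadjusted), and 360 without the filter on dim probes. Leaving out 1 array gave 0 to 756: 0 without the pool of untreated cells (1992 unadjusted), 33 without their single animal and 756 without either endoglin siRNA array; the lone array of a group is then assumed to vary like the other group. In endoglin siRNA cells Ccn1 was -0.25 with Feature Extraction ratios and the deposited table, -0.37 with scaling and 1.12 with median centring. Ccn2 was 1.87 with median centring. Ccn3 was -0.38 without background correction, -0.39 with Feature Extraction ratios, the deposited table and normexp without disturbed spots, -0.79 with scaling and 0.86 with median centring. Ccn4 was -3.17 with scaling, and Ccn5 was 0.17 with scaling and 1.22 with median centring. Median centring moved the median of all genes to 0.32 in endoglin siRNA cells; relative to it Ccn1 stood at 0.80, Ccn2 at 1.55, Ccn3 at 0.54, Ccn4 at -1.66 and Ccn5 at 0.90. In untreated cells Ccn3 was 0.093 with median centring. Ccn1 (-0.46), Ccn2 (0.43) and Ccn5 (0.37) passed with RNA source as a block, and Ccn5 (0.37) also without the dim filter and without either endoglin siRNA array. With 1 array left out, endoglin siRNA ratios ranged from -0.21 to -0.10 for Ccn1, 0.08 to 0.73 for Ccn2, -0.42 to -0.41 for Ccn3, -2.76 to -1.53 for Ccn4 and -0.0037 to 0.10 for Ccn5, and untreated ratios from -0.73 to -0.19, 0.22 to 0.64, -0.10 to -0.04, -0.36 to -0.21 and 0.34 to 0.41 in the same order. The pool's level in control siRNA cells came to -1.81 for Ccn1, -0.44 for Ccn2 and 1.84 for Ccn4 with Feature Extraction signals, and to 1.44 for Ccn4 with normexp on all spots. The cause of these shifts was not tested. The labels give no replicate numbers, so arrays were paired only by RNA source, pool or 1 animal, which may not be the same animals. All 5 members were well above background on every array, while Ccn6 was not on 3 of 4 arrays. The lowest reading of a member was that of Ccn4 in endoglin siRNA cells of 1 animal, at 201. There the size of its ratio depended on the processing, at -2.76 as reported and -3.34 with Feature Extraction ratios.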
